A study of Mus musculus with 3 samples.

Results

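Foxp3 positive regulatory T cells were chosen by their own counts, mainly of Foxp3, from single-cell RNA libraries. Eligible barcodes had at least 1500 UMIs (unique molecular identifiers, tags that let each captured RNA be counted once) and under 10% mitochondrial UMIs. Each had at least 1 UMI of Cd3d, Cd3e and Cd3g together, at least 1 UMI of Foxp3, and none of Cd8a, Cd8b1 or Csf1r, genes that mark CD8 T cells and macrophages. These limits gave 123 cells, out of 8139 barcodes that passed the depth and mitochondrial limits and 10243 barcodes in all. The libraries hold CD45+ immune cells from subcutaneous tumours of the melanoma line B16F10 in C57BL/6 hosts. All hosts were given Pmel-1 cytotoxic T lymphocytes 9 days after the tumour cells, that is, activated CD8 cells with a receptor for the pigment cell protein gp100, and tumours were taken 3, 7 and 14 days after that transfer. Each day is 1 library that pools equal numbers of cells of 3 mice, so the day cannot be told apart from the library or from the age of the tumour. Mice without transfer were not analysed here. The regulatory T cells numbered 26 at day 3, 34 at day 7 and 63 at day 14. They were set against 169 T cells (20, 53 and 96) that met the same limits with at least 1 UMI of Cd4 and none of Foxp3, called Foxp3-negative CD4 T cells below.

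Regulatory T cells are a lineage of mostly CD4 T cells that restrains other lymphocytes. Foxp3, a forkhead transcription factor, defines the lineage and is needed for its function. The cells depend on interleukin 2, which they bind through a receptor whose high-affinity chain is Il2ra (CD25), and they act through cell contact (Ctla4 removes costimulatory ligands from antigen-presenting cells), cytokines such as Il10, and activation of TGF-beta. In tumours they are known to gather and to carry high levels of TNF family costimulatory receptors.

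Promoter windows of the marker genes are shown because the report turns on them. RefSeq holds windows on GRCm38.p6 (250 bases before to 50 after the start) for 5 of 10 genes looked up. In each line the sequence runs 5′ to 3′ on the strand of the gene, and capitals mark a match to the STAT motif TTCNNNGAA, the letters bound by STAT factors such as those that act below the IL-2 receptor.
Foxp3, chrX:7580233-7580532, plus strand, the second of 2 windows: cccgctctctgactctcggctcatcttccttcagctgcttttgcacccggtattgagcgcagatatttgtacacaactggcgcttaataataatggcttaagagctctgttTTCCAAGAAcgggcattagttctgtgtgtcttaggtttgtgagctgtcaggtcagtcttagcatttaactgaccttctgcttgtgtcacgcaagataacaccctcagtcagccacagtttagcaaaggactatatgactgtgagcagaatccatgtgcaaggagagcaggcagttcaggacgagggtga
Il2ra, chr2:11642542-11642841, plus strand: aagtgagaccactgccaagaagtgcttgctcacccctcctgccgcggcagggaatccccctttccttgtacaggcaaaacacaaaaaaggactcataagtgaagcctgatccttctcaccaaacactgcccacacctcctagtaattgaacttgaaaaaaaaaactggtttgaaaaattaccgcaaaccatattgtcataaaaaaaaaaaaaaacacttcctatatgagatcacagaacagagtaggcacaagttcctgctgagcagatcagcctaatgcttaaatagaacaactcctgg
Ctla4, chr1:60908775-60909074, plus strand: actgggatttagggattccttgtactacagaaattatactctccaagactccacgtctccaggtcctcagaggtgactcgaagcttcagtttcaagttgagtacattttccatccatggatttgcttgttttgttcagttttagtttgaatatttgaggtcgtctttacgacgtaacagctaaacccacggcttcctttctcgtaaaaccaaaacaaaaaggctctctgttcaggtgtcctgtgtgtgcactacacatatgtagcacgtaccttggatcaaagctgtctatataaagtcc
Tnfrsf4, chr4:156013445-156013744, plus strand: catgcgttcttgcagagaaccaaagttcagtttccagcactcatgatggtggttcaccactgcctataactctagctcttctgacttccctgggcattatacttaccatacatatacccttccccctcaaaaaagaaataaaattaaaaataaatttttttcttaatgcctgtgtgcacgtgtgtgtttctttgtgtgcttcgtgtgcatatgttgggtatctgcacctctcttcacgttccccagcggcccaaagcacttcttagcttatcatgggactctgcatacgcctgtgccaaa
Both strands were searched for TTCNNNGAA, for GTAAACA (forkhead), TGANTCA (AP-1) and the NF-kB motif, with N for any base. For NF-kB only 1 narrow form of the motif was used, with 1 variable base. Looser NF-kB forms were not searched, so the counts here do not show whether a window holds one. The Foxp3 window held 1 STAT match at position -139 from the start and no other match, so no matches overlapped. The 3 other windows printed held none of the 4 motifs in the forms searched. The first Foxp3 window and the Itgb8 window, not printed, held none either, so 1 of 6 windows had a match. Of 32851 windows of the same length, 8.3% held the STAT letters, 3.65% the forkhead, 7.81% the AP-1 and 0.411% the NF-kB letters.

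The cells carried the other marker genes as well as Foxp3. A median of 4 Foxp3 UMIs was counted per cell (range 1 to 18), and 22 of the 123 cells (17.9%) lay at the limit with 1 UMI. The cells with 1 Foxp3 UMI had 222 UMIs of Il2ra per 1000000 UMIs of these cells (CPM, counts scaled to 1000000), 942 of Ikzf2, 1419 of Ctla4 and 1812 of Tnfrsf4. Cells with 2 or more had 292, 1157, 1461 and 1621, and the Foxp3-negative CD4 T cells just outside had 59.7, 103, 484 and 425. Pooled over the days, cells just inside the limit were thus nearer to the other members than to the cells without Foxp3 for these 4 genes. At day 3 this did not hold for Il2ra, at 56.7 CPM in the 7 cells with 1 Foxp3 UMI, 450.1 in those with more and 58.3 in the Foxp3-negative cells. Other cells just outside were 14 with 1 Cd8 UMI, 4 with 1 Csf1r UMI, 4 with 1000 or more but under 1500 UMIs, 3 without Cd3 and 2 with 10% or more mitochondrial UMIs. In Csf1r-positive cells without Cd3, which should lack Foxp3, 3 of 1199, 1 of 853 and 4 of 1165 cells had a UMI of it, at median depths of 10526, 10734 and 11765 UMIs. Cd4 was seen in 14, 27 and 38 members.

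Some barcodes stood apart. Members had medians of 4950, 8264.5 and 8527 UMIs, against 4195, 5693 and 4478.5 in the Foxp3-negative CD4 T cells, and 2, 8 and 11 members against 0, 1 and 3 of the others had at least 20000 UMIs. Barcode sequences shared between libraries numbered 2, 4 and 3 among members. At least 3 UMIs of other cells' markers lay in 4, 6 and 12 members, and at least 20 UMIs of the MHC class II genes H2-Aa, H2-Ab1 and H2-Eb1 in 2, 1 and 6. The summed level of 7 myeloid markers ran from 66.6 to 217 CPM in members over the 3 days and from 53.2 to 69.9 in Foxp3-negative CD4 T cells, against 10824 to 12555 in Csf1r-positive cells. Csf1r is at 0 by the rule, C1qb and C1qc were at 0 at day 3, and Adgre1 at day 7. The 4 dendritic cell markers were at 0 at days 3 and 7 and summed to 31.2 CPM at day 14, against 38.3 in the other class. NK markers summed to 31.8, 20.8 and 38.7 CPM in members, gamma-delta T markers to 53.0, 4.16 and 26.2, neutrophil markers to 5.30, 4.16 and 8.73, and B cell markers to 5.30, 12.5 and 21.2, with Ms4a1 at 0 on every day. Melanoma and erythroid markers were at 0 in members on every day. The part of other cells' RNA in the results below was not tested.

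The first comparison asks how large the regulatory T cell share was on each day after transfer. Members made up 0.956% of filtered barcodes at day 3, which is 26 of 2719 (exact Clopper-Pearson 95% interval 0.626 to 1.40%). The day 7 share was 1.32%, from 34 of 2577 barcodes (0.915 to 1.84%). For day 14 the share was 2.22%, from 63 of 2843 (1.71 to 2.83%). The ratio of day 14 to day 3 was 2.32 (95% interval 1.47 to 3.65), of day 14 to day 7 1.68 (1.11 to 2.54), and of day 7 to day 3 1.38 (0.830 to 2.29). All intervals here and below cover counting error only, and with 1 library a day there is no test across mice. Each cell was also thinned to 1500 UMIs to level depth, with all the gene limits then applied to the thinned counts. Cells could thus drop out by losing Cd3 or Foxp3 UMIs, or enter by losing Cd8 or Csf1r UMIs. The shares were then 0.736%, 0.893% and 1.41%, and the ratio of day 14 to day 3 was 1.91 (1.12 to 3.26). That of day 14 to day 7 was 1.58 with an interval that includes 1 (0.947 to 2.63). Among members with a Cd4 UMI the ratio of day 14 to day 7 was 1.28 (0.781 to 2.08) and that of day 7 to day 3 was 2.03 (1.07 to 3.87), so which of these 2 intervals leaves out 1 turned with that limit. The ratio of day 14 to day 3 was then 2.60 (1.41 to 4.78).

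Of T cells without Cd8 UMIs the members were 12.6% at day 3, with 207 such cells and an interval of 8.37 to 17.9%. They were 10.1% of 335 cells at day 7 (7.13 to 13.9%), and day 14 had 15.7% of 401 cells (12.3 to 19.6%). Here the ratio of day 14 to day 3 was 1.25 (0.818 to 1.91), whose interval includes 1, and the ratio of day 7 to day 3 was 0.808. The higher share of all barcodes at day 14 was thus seen together with more T cells without Cd8 UMIs, 401 against 207 of the filtered barcodes. These T cells did not need a Cd4 UMI. Set against the Foxp3-negative CD4 T cells, members numbered 26 to 20 at day 3, 34 to 53 at day 7 and 63 to 96 at day 14. They outnumbered that class at day 3 only, so a rise over the days was not seen on this basis. Members with a Cd4 UMI numbered 14, 27 and 38.

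**Figure D1:**
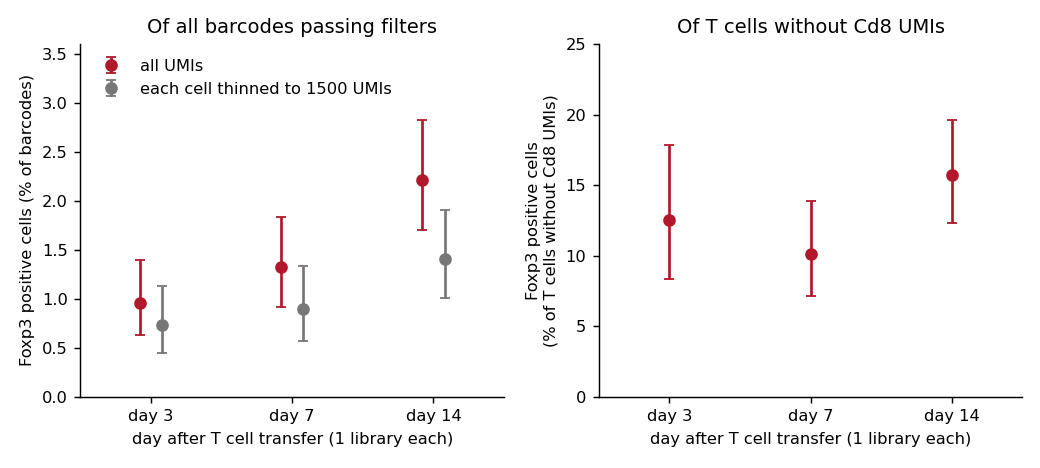
Share of Foxp3 positive regulatory T cells on days 3, 7 and 14 after T cell transfer, 1 library a day, with exact 95% intervals for counting error. On the left the share of all filtered barcodes (0.956%, 1.32% and 2.22% with all UMIs, red; 0.736%, 0.893% and 1.41% with each cell thinned to 1500 UMIs, grey); on the right the share of T cells without Cd8 UMIs (12.6%, 10.1% and 15.7%).

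The second comparison asks which genes set these cells apart from Foxp3-negative CD4 T cells of the same tumours. UMIs were summed over the cells of each class in each library and tested with edgeR's quasi-likelihood test with the library as a block and Benjamini-Hochberg adjustment, which takes the 3 libraries as replicates. Of 4970 genes tested, 363 (7.3%) were higher and 446 (8.97%) lower in the regulatory T cells at an adjusted p under 0.05. The median log2 fold change of all genes was -0.01. The 2 classes did not overlap over the libraries in 19.7% of genes on the higher side and 11.9% on the lower side. Foxp3, Cd4, the Cd3 and Cd8 genes and Csf1r were used by the limits and are given as a description. The members were not required to hold a Cd4 UMI, and with that limit 778 genes were called, 723 of them shared with the 809 of the full fit. Without the library block 197 genes were higher and 304 lower, and without the day 7 library 139 and 195.

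The genes that define the lineage were higher in the regulatory T cells. Of 15 tested identity genes other than Foxp3, 11 were higher and 1 was lower, with a median log2 fold change of 1.44. Foxp3, by the rule, stood at 557, 362 and 371 CPM at days 3, 7 and 14 and at 0 in the other class. Ikzf2, which encodes the transcription factor Helios, stood at 1188, 1248 and 1054 CPM in the 3 regulatory T cell sums and at 105, 71.0 and 122 CPM in the Foxp3-negative sums. The 2 ranges lie far apart, and the fitted log2 fold change was 3.40 ± 0.20 (SE, edgeR adjusted p = 4.64e-11), higher in 3 of 3 libraries. Its relative Ikzf4 (Eos) stood at 79.5, 85.3 and 54.9 CPM against 0, 2.96 and 5.47 (log2 fold change 3.84 ± 0.53, edgeR adjusted p = 2.04e-05). Both Ikaros family genes thus kept apart from the other class on every day. In Foxp3-negative CD4 T cells Ikzf2 was still seen in 5, 9 and 11 cells.

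Il2ra stood at 376.5, 299.5 and 254.6 CPM against 58.3, 73.9 and 51.1 (log2 fold change 2.12 ± 0.23, edgeR adjusted p = 7.21e-07). Ctla4 stood at 1219.6, 1691 and 1373 CPM against 408, 654 and 392 (1.46 ± 0.16, edgeR adjusted p = 7.21e-07). Neither gene overlapped between the classes, but Ctla4 was far from absent in the other class, where 9, 37 and 42 cells had a UMI of it. Other called identity genes were Lrrc32 (GARP, which holds latent TGF-beta on the cell surface), Itgb8 (an integrin chain that releases it), Izumo1r, Capg and Ly6a. Ly6a was at 0.44 ± 0.14 and its call was lost without the block (edgeR adjusted p = 0.22) and without the day 7 or day 14 library (0.14 and 0.17). Nrp1, often used as a marker of thymus-derived regulatory T cells, was not called, with 53.0, 4.16 and 17.5 CPM against 23.3, 65.1 and 40.1 (edgeR adjusted p = 0.114). It was called lower in 6 alternatives, among them at -2.16 without the day 3 library (edgeR adjusted p = 1.77e-04) and at -1.65 with at least 2 Foxp3 UMIs (0.00414). The lower identity gene was Rgs1, an inhibitor of G protein signalling, at 392, 599 and 558 CPM against 1422, 1423 and 1169. Its ranges did not overlap either.

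Genes of costimulation split into a higher and a lower set. Of 14 tested genes of a costimulation list, with members of the TNF receptor, CD28 and other families, 6 were higher and 5 lower. The list also holds Cd40lg, a ligand. Tnfrsf4 (OX40) stood at 2646, 1549.7 and 1459 CPM against 198, 349 and 507, highest at day 3 in the regulatory T cells and at day 14 in the others (2.09 ± 0.40, edgeR adjusted p = 0.0397). Of its 499 UMIs in members at day 3, 183 lay in 1 cell. Tnfrsf9 (4-1BB) had the same order over the days, at 1877, 1029.7 and 965 CPM against 105, 198 and 306 (2.25 ± 0.42, edgeR adjusted p = 0.0357). Without the day 7 library these calls were lost (edgeR adjusted p = 0.20 and 0.24), although the fitted values moved little, to 2.25 and 2.38. Tnfrsf18 (GITR) stood at 1219.6, 824 and 799.9 CPM against 198, 289.9 and 392 (1.41 ± 0.22, edgeR adjusted p = 4.94e-04).

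Cd27, Tnfrsf1b and Cd2 were also higher. In the opposite direction, Cd28, the main costimulatory receptor of naive T cells, stood at 345, 333 and 326 CPM against 629, 778 and 598 (fell by 1.13 on the log2 scale, SE 0.17, edgeR adjusted p = 4.74e-05). Tnfrsf25 (DR3), Cd226, Slamf1 and Cd40lg were lower too. Icos stood at 885.5, 890.3 and 683 CPM against 757.5, 739 and 485 and was not called (0.21 ± 0.15, edgeR adjusted p = 0.42), but passed with each cell thinned to 1500 UMIs (edgeR adjusted p = 0.00815).

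**Figure D2:**
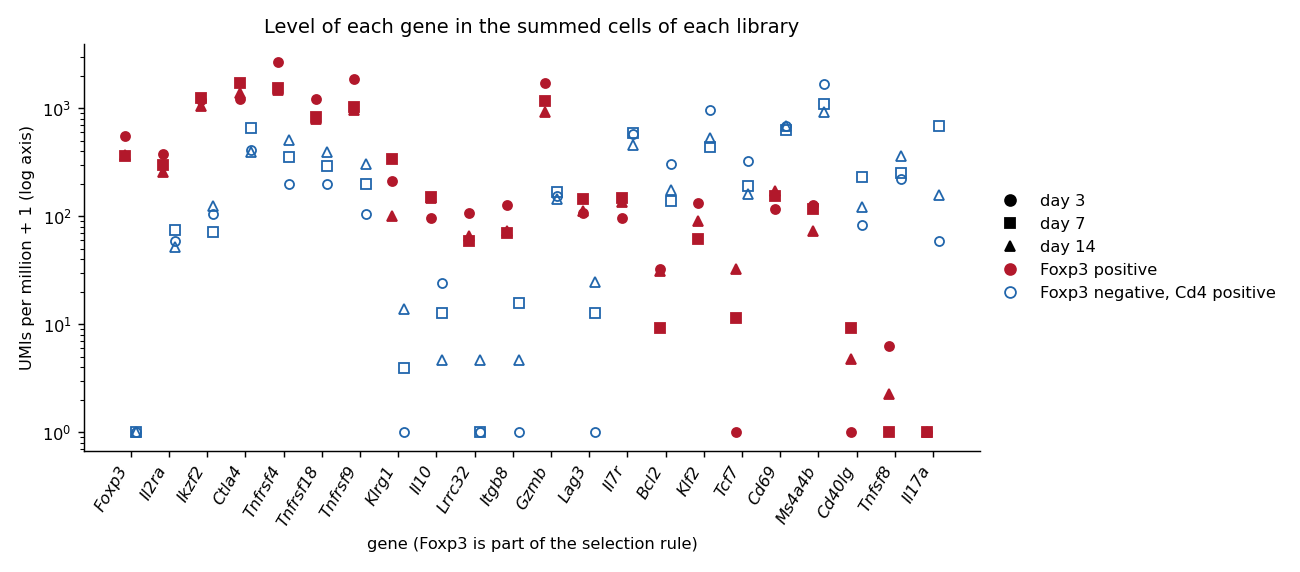
Level of 22 genes in the summed cells of each library, in CPM plus 1 on a log axis, with regulatory T cells filled in red, Foxp3-negative CD4 T cells open in blue, and a symbol for each day. Ikzf2 stands between 1054 and 1248 in the regulatory T cells and between 71.0 and 122 in the others, and Klf2, Cd69 and Ms4a4b show the opposite order without overlap.

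The IL-2 receptor differed by chain. Il2ra was higher, as above, and Il2rb, the shared beta chain, stood at 573, 472 and 475 CPM against 221, 313.5 and 269.9 (0.72 ± 0.18, edgeR adjusted p = 0.0068). Il2rg, the common gamma chain, stood at 292, 223 and 246 CPM against 291, 381.5 and 339, and its lower call was lost in several alternatives (edgeR adjusted p = 0.0278 in the full fit and 0.0772 without the block). Il7r, the IL-7 receptor of resting T cells, was lower at 95.4, 147.7 and 133.5 CPM against 571, 589 and 450.5 (fell by 2.14 on the log2 scale, SE 0.19, edgeR adjusted p = 4.46e-08). Bcl2, which protects from cell death, was lower at 31.8, 8.32 and 29.9 CPM against 303, 136 and 175. Over the whole list of 16 tested IL-2 and STAT5 pathway genes 2 were higher and 5 lower. Il2 itself gave no UMI in members and 12 in the other class, under the limit for a test.

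Genes through which regulatory T cells suppress others were mostly higher. Of 16 tested suppressive mediators, 11 were higher and none lower, with a median of 1.45. Il10 stood at 95.4, 149.8 and 146 CPM against 23.3, 11.8 and 3.65 (3.89 ± 0.43, edgeR adjusted p = 9.97e-07). It was seen in 9, 14 and 18 members, and 1 cell carried 32 of the 72 UMIs at day 7 and 1 carried 27 of 117 at day 14. Gzmb, a cytotoxic protease, stood at 1707, 1175 and 918 CPM against 151.5, 166 and 144 (2.77 ± 0.18, edgeR adjusted p = 2.09e-10). The CD8 T cells of the same libraries had 2251, 946 and 635.5 CPM of Gzmb, so its level in regulatory T cells lay below that of CD8 T cells at day 3 and above it at days 7 and 14, without a test.

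Lrrc32 stood at 106, 58.2 and 64.9 CPM, with 0, 0 and 2 UMIs in the other class (4.73 ± 0.61, edgeR adjusted p = 9.15e-06). Itgb8 stood at 127, 68.6 and 72.4 CPM against 0, 14.8 and 3.65. In CD8 T cells Itgb8 stood at 0.766, 0.238 and 0.308 CPM, so regulatory T cells were the higher of these 3 T cell classes in each library. Lag3, an inhibitory receptor for MHC class II, stood at 106, 144 and 111 CPM against 0, 11.8 and 23.7 (2.72 ± 0.38, edgeR adjusted p = 2.15e-05), near the 95.5, 149 and 77.8 CPM of CD8 T cells. Lgals1, a galectin, was higher at 1.16 ± 0.15, a call that was lost without the block (edgeR adjusted p = 0.086). Tgfb1 stood at 201.5, 212 and 205 CPM against 93.2, 175 and 182 and was not called (0.23 ± 0.21, edgeR adjusted p = 0.53). Pdcd1 (PD-1) was not called either, at 138, 64.5 and 93.6 CPM against 81.6, 68.0 and 83.9.

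Genes linked to regulatory T cells of tissues and tumours gave 9 higher and 4 lower of 18 tested. Klrg1, a lectin receptor of differentiated effector cells, stood at 212, 335 and 99.8 CPM against 0, 2.96 and 12.8 (4.33 ± 0.49, edgeR adjusted p = 4.29e-05). In the other class 0, 1 and 5 cells had a UMI of it. Areg, a growth factor for epithelial repair, stood at 233, 782 and 343 CPM against 209.8, 183 and 74.8, close together at day 3 and apart later (1.63 ± 0.34, edgeR adjusted p = 0.0158). The Areg call was lost without the day 7 library (edgeR adjusted p = 0.058), without the block (0.21), with at least 3000 UMIs (0.107) and under 5% mitochondrial UMIs (0.136). Maf stood at 530.3, 587 and 498 CPM against 233, 219 and 275 (1.004 ± 0.18, edgeR adjusted p = 3.49e-04). Ccr8, a chemokine receptor of tumour regulatory T cells, had 13, 13 and 17 UMIs against 0, 1 and 3, too few for the test, and Il1rl1 (the IL-33 receptor) had 1, 2 and 3 UMIs against 3, 19 and 11.

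The lower genes of that list were Gata3, Rora, Irf4 and Cxcr6. Cxcr6, a chemokine receptor of tissue T cells, stood at 15.9, 24.96 and 62.4 CPM against 326, 503 and 235 (fell by 3.18 on the log2 scale, SE 0.59, edgeR adjusted p = 0.0340), and at 259, 299.5 and 130.4 CPM in CD8 T cells. Its call was lost with at least 2 Foxp3 UMIs per cell (edgeR adjusted p = 0.12) and without cells with markers of other cell types (0.0992). Rora was lower by 0.99 on the log2 scale in the full fit but by 0.24 with thinned cells, where it was not called (edgeR adjusted p = 0.53).

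The other genes among the 12 with the highest fold change were Neb, Mt1, Shmt1, Snx9 and Rapsn. Neb, which encodes the giant muscle protein nebulin, stood at 79.5, 66.6 and 69.9 CPM against 0, 2.96 and 1.82 (4.78 ± 0.59, edgeR adjusted p = 4.67e-06), and was seen in 10, 20 and 32 members against 0, 1 and 1 of the other cells. No member had more than 4 of its UMIs, so its level did not rest on 1 cell. Rapsn, known for anchoring acetylcholine receptors at the muscle synapse, was seen in 6, 19 and 19 members against 0, 1 and 4 of the others. Snx9, a sorting nexin of endocytosis, was seen in 10, 22 and 36 members against 0, 0 and 5. Mt1, a metallothionein, stood at 90.1, 420.2 and 565 CPM against 35.0, 38.5 and 20.1. Of the 453 Mt1 UMIs at day 14, 263 lay in 1 cell, and the Mt1 call was lost without shared barcodes (edgeR adjusted p = 0.12).

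Genes of helper and naive T cells were lower, 10 of 15 tested against 1 higher, with a median of -1.82. Cd40lg, the helper ligand that activates B cells and dendritic cells, had 0, 4 and 3 UMIs in members and 7, 77 and 66 in the other class. The pooled level was 32.4-fold lower in the regulatory T cells (95% counting interval 15.4 to 82.0), with an edgeR adjusted p of 5.91e-09. Tnfsf8 (CD30 ligand) had 2 UMIs in all members and 299 in the other class, and Tnfsf11 (RANKL) 4 and 78. These 3 TNF family ligands thus lay at or near the floor in the regulatory T cells. Il17a gave no UMI in members and 322 in the other class, at least 162-fold lower over the group with a floor of 3 counts. These 322 UMIs lay in 1, 15 and 3 cells, and without the block the Il17a call was lost (edgeR adjusted p = 0.21).

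Tcf7, a factor of naive and memory T cells, stood at 0, 10.4 and 31.2 CPM against 326, 189 and 159, and its call was lost without the day 7 library (edgeR adjusted p = 0.13) and with at least 2 Foxp3 UMIs (0.14). Klf2, a transcription factor that maintains the receptors T cells need to leave tissue, was lower at 133, 60.3 and 89.8 CPM against 967, 435 and 523 (fell by 2.85 on the log2 scale, SE 0.19, edgeR adjusted p = 2.52e-10). Its target S1pr1, the receptor for the exit signal, moved the same way at 15.9, 18.7 and 23.7 CPM against 221, 101 and 151. Ms4a4b, a membrane protein of naive and effector T cells, stood at 127, 114 and 72.4 CPM against 1689.8, 1100.3 and 925, with the lowest edgeR adjusted p of all genes tested (2.99e-12).

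Of 18 tested adhesion and residence genes, 9 were lower and 3 higher. Cd69, which marks recent activation and holds T cells in tissue, stood at 117, 154 and 169.7 CPM against 688, 627 and 686 (fell by 2.26 on the log2 scale, SE 0.18, edgeR adjusted p = 6.84e-09). Itgb1 (integrin beta 1) stood at 68.9, 74.9 and 68.6 CPM against 454.5, 556 and 452. Gpr183, a receptor for oxysterols, stood at 63.6, 66.6 and 57.4 CPM against 303, 343 and 268. For these 3 genes each regulatory T cell sum lay below each sum of the other class by more than 3 times. The higher genes included the chemokine receptor Ccr2, at 536, 449 and 352 CPM against 151.5, 287 and 212.

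Genes induced early after receptor signalling were lower as well, 11 of 16 tested against 1 higher (Tnfrsf9). Junb, a subunit of AP-1, stood at 1432, 1604 and 1430.0 CPM against 3146, 3410.3 and 2471 (fell by 1.13 on the log2 scale, SE 0.14, edgeR adjusted p = 4.67e-06). Fos stood at 265, 108 and 213 CPM against 489.5, 316.5 and 430.4. The genes of this group are also raised by tissue digestion, and 6 of 19 tested heat shock and dissociation genes were lower, all of them AP-1 or immediate early genes, while 4 chaperones, among them Hspa8, Hsp90aa1 and Hsp90ab1, were higher. Without barcodes of at least 20000 UMIs the calls of these 3 were lost (edgeR adjusted p = 0.0902, 0.837 and 0.131), as they were without the day 7 library (0.104, 0.492 and 0.183), and Hsp90aa1 lost its call in further alternatives. The part of digestion in these differences was not tested. In the NF-kB list none was higher and 2 of 15 were lower, Tnfaip3 and Nfkbid.

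**Figure D3:**
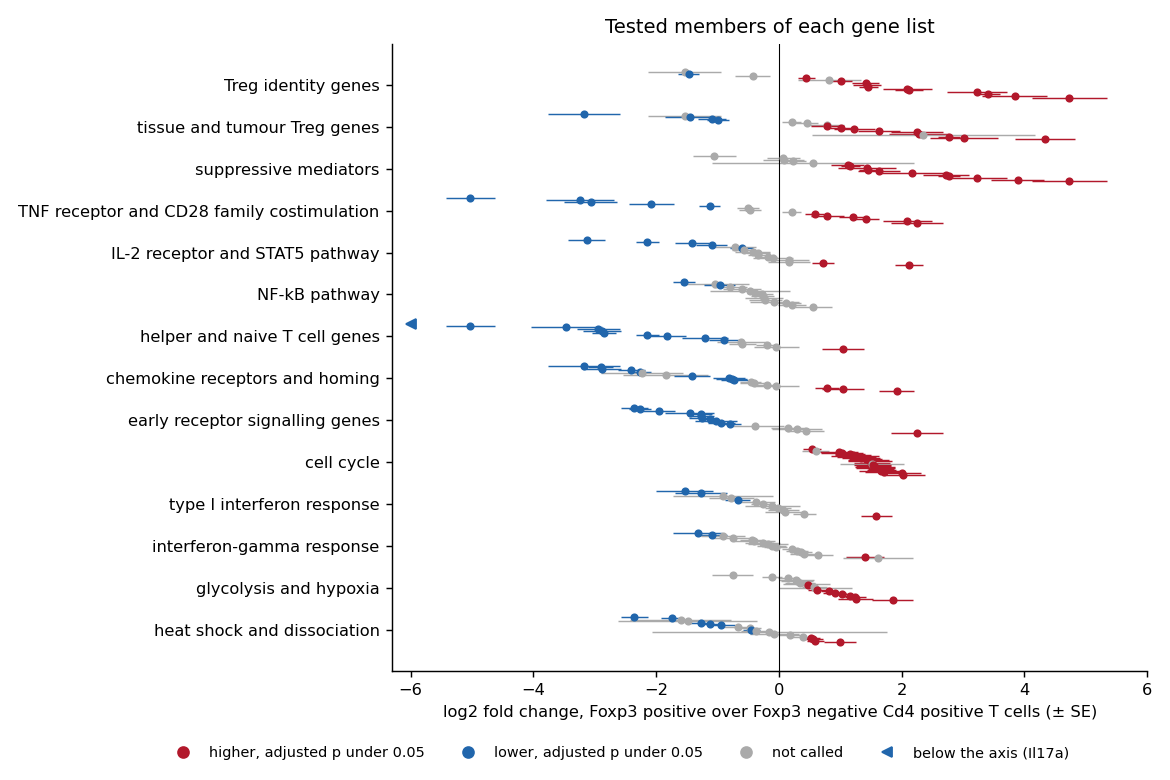
Log2 fold change with its SE (edgeR) of regulatory T cells over Foxp3-negative CD4 T cells for each tested member of 14 gene lists, gate genes left out, with genes higher at an adjusted p under 0.05 in red, lower in blue and not called in grey. Suppressive mediators have 11 higher and none lower, cell cycle genes 22 higher and none lower, and helper and naive genes 1 higher and 10 lower. Il17a lies below the axis and is drawn as an arrowhead.

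Cell cycle genes were higher in the regulatory T cells, 22 of 24 tested and none lower, with a median of 1.503. Top2a, which untangles DNA in dividing cells, stood at 186, 641 and 268 CPM against 11.7, 163 and 106 (1.67 ± 0.23, edgeR adjusted p = 3.09e-05). The Top2a call was lost without the block (edgeR adjusted p = 0.258), without shared barcodes (0.107) and without barcodes of at least 20000 UMIs (0.0848), and held under the other alternatives run. Mki67, the Ki-67 gene, stood at 159, 493 and 201 CPM against 11.7, 76.9 and 135 and was not called (1.52 ± 0.52, edgeR adjusted p = 0.14), though its ranges did not overlap and its adjusted p ran from 8.82e-08 without the low count filter to 0.485 without cells with markers of other cell types, with DESeq2 at 0.0115. Its UMIs were seen in 6, 12 and 24 members. The count changed with the cells and the fit. Without the block 6 cell cycle genes were higher, without barcodes of at least 20000 UMIs 8 of 15 tested, without shared barcodes 13 of 23 and without the day 7 library 9 of 23, with none lower in any of these.

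Glycolysis and hypoxia genes gave 9 higher and none lower of 18 tested, with a median of 0.58. Pkm, the last enzyme of glycolysis, stood at 1548, 2007 and 1977 CPM against 688, 663 and 932 (1.16 ± 0.15, edgeR adjusted p = 8.83e-06), and Pgk1 at 647, 919 and 966 CPM against 361, 379 and 418 (1.02 ± 0.16, edgeR adjusted p = 1.31e-04). Both were higher in 3 of 3 libraries without overlap. Summed over the list the level was 11820, 13914 and 13699.9 CPM against 6351, 7039 and 8218, and without barcodes of at least 20000 UMIs still 13368, 13410.4 and 13224 CPM. Of 13 tested type I interferon response genes 1 was higher (Isg20) and 3 were lower (Ifit3, Oas3 and Bst2), and of 17 interferon-gamma response genes 1 was higher (Gbp3) and 2 were lower (Gbp8 and Socs1).

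Depth differed between the classes, so each cell was also thinned to 1500 UMIs, here with the classes set before thinning. Of 1014 genes then tested 107 were higher and 143 lower. Of the 809 genes called in the full fit 349 could be tested, 344 kept their direction and 202 their call. Identity genes gave 8 higher and 1 lower of 9, suppressive mediators 6 and 0 of 7, and early receptor genes 1 and 7 of 9. Receptor variable segments gave few UMIs: of 1, 1 and 4 Trbv UMIs in members none was Trbv14, the segment of the transferred Pmel-1 receptor, while 87 of 129, 292 of 351 and 247 of 285 were in CD8 T cells. In Foxp3-negative CD4 T cells 12 of 21 Trbv UMIs at day 7 and 2 of 8 at day 14 were Trbv14, with 0 Trbv UMIs at day 3. The source of these Trbv14 UMIs was not tested.

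The third comparison follows the regulatory T cells over the days. With 1 library a day it has no test. A gene counts as higher or lower where the ratio of CPM is at least 1.5-fold with a 95% interval, for counting error only, that excludes 1. From day 3 to day 7, 352 of 4440 genes (7.93%) were higher and 326 (7.34%) lower. From day 7 to day 14, 316 of 6288 (5.03%) were higher and 362 (5.76%) lower, and from day 3 to day 14, 209 of 5622 (3.72%) were higher and 370 (6.58%) lower. Single deep cells weigh on these sums: 1 cell at day 7 held 90991 of 480745 UMIs.

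Cell cycle genes differed between the days. Their summed level in the members was 3436 CPM at day 3, 8899 at day 7 and 5226 at day 14, and 991, 2780.3 and 2933 CPM in Foxp3-negative CD4 T cells. Day 7 was thus highest in the members, and day 14 in the others. From day 3 to day 7, 20 of 24 genes were higher and none lower, and from day 7 to day 14, 16 were lower and none higher. Top2a was 3.45-fold higher at day 7 than at day 3 (95% interval 2.43 to 5.05) and 2.39-fold lower at day 14 than at day 7 (2.00 to 2.86). Without barcodes of at least 20000 UMIs the sums were 2334, 4548 and 2743 CPM, with 9 of 17 genes higher and 1 lower at day 7 than at day 3 and 10 of 24 lower at day 14 than at day 7. With thinned cells the sums were 3026, 5235 and 2942 CPM. From day 3 to day 14, 8 of 24 were higher, and none of 19 without the barcodes of at least 20000 UMIs. Ranked by the lower bound of the ratio of day 7 to day 3, among genes with at least 50 UMIs, the first 5 were Tpx2, Cenpf, Ccnb1, Cdca8 and Birc5, all of mitosis. Of 112 Cenpf UMIs at day 7, 50 lay in 1 cell, and Tpx2 had 1 UMI at day 3 against 87.

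**Figure D4:**
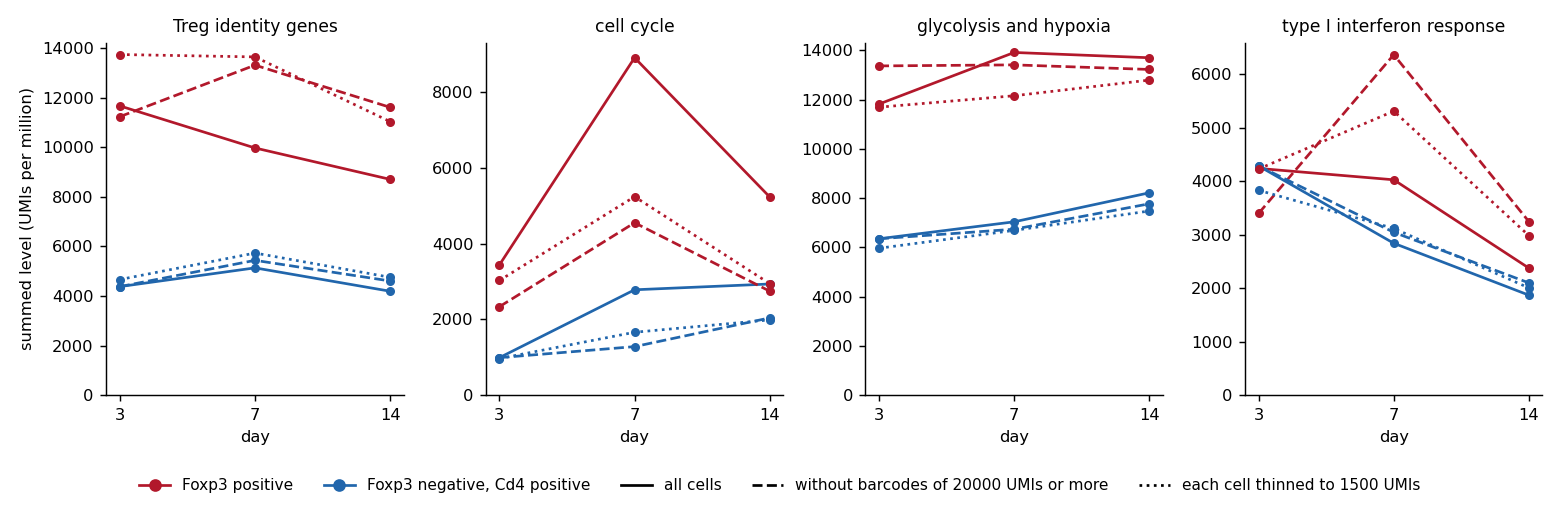
Summed level of 4 gene lists by day in CPM, with regulatory T cells in red and Foxp3-negative CD4 T cells in blue, for all cells (solid), without barcodes of at least 20000 UMIs (dashed) and with each cell thinned to 1500 UMIs (dotted). Cell cycle genes peak at day 7 in the regulatory T cells under all 3 settings (8899, 4548 and 5235), and identity genes stay above the other class on every day. The identity sum includes Foxp3, which the rule sets at 0 in the other class. For all cells Foxp3 gave 105 of 2201, 174 of 4795 and 297 of 6978 identity UMIs of members at days 3, 7 and 14.

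Type I interferon response genes were lower at day 14. From day 7 to day 14, 7 of 13 were lower and none higher, and 8 of 12 without barcodes of at least 20000 UMIs. Isg15, a ubiquitin-like protein, had 94, 89 and 36 UMIs at days 3, 7 and 14, or 498, 185 and 44.9 CPM. It was 4.12-fold lower at day 14 than at day 7 (95% interval 2.77 to 6.25), with UMIs in 10, 21 and 16 members. At day 3, 48 of its 94 UMIs lay in 1 cell, and the day 7 to day 3 difference reversed without barcodes of at least 20000 UMIs. Ifi27l2a stood at 1814, 2521 and 1391 CPM and was 1.81-fold lower at day 14 than at day 7 (1.67 to 1.97). Summed over the list, Foxp3-negative CD4 T cells went from 4289 to 2842 and 1871 CPM and members from 4242 to 4029 and 2377 CPM, lowest in both classes at day 14. Without barcodes of at least 20000 UMIs the members had 3400, 6369 and 3246 CPM, and with thinned cells 4231, 5314 and 2984 CPM, so day 7 was highest in both and days 3 and 14 lay close together in the first.

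Klrg1 and Areg were highest at day 7. Klrg1 was 3.35-fold lower at day 14 than at day 7 (2.55 to 4.44), with 161 UMIs in 20 of 34 members at day 7 and 80 in 29 of 63 at day 14. Areg was 3.35-fold higher at day 7 than at day 3 (2.45 to 4.69) and 2.28-fold lower at day 14 than at day 7 (1.95 to 2.67), and 121 of its 376 UMIs at day 7 lay in 1 cell. In members with a Cd4 UMI the day 7 to day 3 difference of Areg was 0.43 on the log2 scale, against 1.75 in all members. Tnfrsf4 and Tnfrsf9 were highest at day 3, 1.71-fold (1.52 to 1.92) and 1.82-fold (1.59 to 2.09) above day 7. At day 3, 183 of 499 Tnfrsf4 UMIs lay in 1 cell. Without barcodes of at least 20000 UMIs the Tnfrsf4 difference was gone, at 0.08 on the log2 scale in the other direction. Penk, a precursor of opioid peptides, had 45, 105 and 13 UMIs in 2, 3 and 3 cells, so its lower level at day 14 rests on single cells.

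Several genes that led the lists by day are macrophage or dendritic cell genes carried by few barcodes. At day 3 the 154 UMIs of Cxcl9, a chemokine of myeloid cells, lay in 4 members, 119 of them in 1. Napsa, Spi1, H2-DMb1 and Naaa were likewise higher at day 3 than at day 7 through 2 or 3 cells each. At day 14, 581 of 896 Cst3 UMIs and 223 of 442 H2-Ab1 UMIs lay in 1 member. Without members that had at least 3 UMIs of other cells' markers the day 14 to day 7 differences of Cst3, H2-Aa and H2-Ab1 reversed. Fscn1 had 52 UMIs in 3 members at day 14 and none at day 7. Of 157 Hspa1b UMIs at day 3, 155 lay in 1 cell. Ccl4, a chemokine, had 15, 81 and 370 UMIs in 3, 10 and 26 members (5.80-fold higher at day 14 than at day 3, 3.47 to 10.5). Of these, 10 of 15 at day 3 and 154 of 370 at day 14 lay in 1 cell. With those UMIs left out the difference was 3.35 on the log2 scale, against 2.54 with them.

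Members also differed among themselves. The medians and levels given for each split pool the 3 days, so the day is mixed into them. Klrg1 was seen in 7 of 26, 20 of 34 and 29 of 63 members. The 56 cells with Klrg1 were deeper, with a median of 10649.5 against 5513 UMIs, and had 708 against 186 CPM of Areg, 1260.2 against 913 of Gzmb, and 193 against 10.6 of Penk, whose UMIs lay in 5 and 3 cells. The 56 members with a UMI of Mki67 or Top2a had a median of 16640 UMIs, against 5431 in the other 67. They had lower CPM of Gzmb (782 against 1935) and Tnfrsf9 (779 against 1942). The markers Foxp3 (304 against 620), Ikzf2 (939 against 1642), Ctla4 (1257 against 1976) and Tnfrsf4 (1394 against 2279) were lower too, and Il2ra was not (293 against 263). Gzmb was seen in 75.0% against 71.6% of the cells and Tnfrsf9 in 96.4% against 89.6%, so fewer cells with these genes were not seen. Cells were split by their own counts here, depth moves with each split, and no test was made.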

How the data were processed

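The deposited files hold raw UMI counts per gene and barcode for 3 libraries made with a 10x Genomics 3′ kit, and the submitters' processing notes name Cell Ranger 4.0.0 and the build mm10. Which annotation was used, and whether the authors took out doublets, is not given in the sources used here. Library totals of the deposited counts were 33096709, 29547433 and 35742070 UMIs at days 3, 7 and 14, and the members' sums 188585, 480745 and 801390.

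Barcodes needed at least 1500 UMIs and under 10% mitochondrial UMIs. The regulatory T cells and the gene lists were chosen with earlier results of these data known, so no list is independent evidence of its direction. Doublets were not removed from the full results. The automatic doublet caller marked 3, 11 and 3 barcodes, so an alternative left out the barcodes with the highest scores, at 0.8% per 1000 barcodes (59, 53 and 65).

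UMIs were summed per library and class and tested with edgeR 4.0.16 in R 4.3.3 (TMM scaling, filterByExpr, robust quasi-likelihood fit, Benjamini-Hochberg adjustment over 4970 genes). The library was a block because both classes of a day come from the same library. The deviations of the 2 classes of a library correlated at 0.165, 0.192 and 0.0631. The p-values measure how the class difference varied over 3 libraries of pooled mice, taken on different days, with 2 residual degrees of freedom. The fit also borrows the spread of other genes, with a median of 20.3 prior degrees of freedom. Small p-values thus rest largely on that borrowed spread. Days were compared by the CPM ratio with exact conditional 95% intervals, for genes with at least 20 UMIs over both days. A fold against 0 used a floor of 3 counts over the group.

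Named genes were the 5 label markers, the 12 highest and 12 lowest by fold change among genes called with the same direction in 3 of 3 libraries, up to 5 in each direction per day comparison with at least 50 UMIs, up to 8 per list, and Il10, Areg, Ccr8, Il1rl1, Klrg1, Tnfrsf9, Mki67, Il2, Cd40lg and Il7r. Further list members, among them Lag3, Bcl2, Cd27, Nrp1, S1pr1, Top2a, Isg15 and Ifi27l2a, were named after their values were seen. Results for some list members are not reported here, though the list counts include them. In simulated counts with 4709 genes the edgeR fit recovered 59.1% of genes changed by a log2 fold of 1 and 100% of those changed by 2, with 6.67% false calls. The simulation used the fitted spread and held no difference between days and no single deep cells. Its rates therefore describe the fitted model and may not hold for these libraries. Alternatives changed the cell limits, doublet handling, depth, block, tool (DESeq2 1.42.0) and filter, and left out each library. In the alternative without the top cell each gene lost its UMIs in the cell that held the most of them, and no cell was removed. Promoter letters come from RefSeq.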

Additional observations from a re-analysis of the deposited data

Results flagged for a closer look

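For the 5 genes given here the ratio of regulatory T cells to Foxp3-negative CD4 T cells lay above 1 on one day and below 1 on another, each with a counting interval that leaves out 1. The difference between days was not tested, since each day is 1 library. Malt1, a signalling protein of the NF-kB pathway, had a ratio of 3.06 at day 3 (95% interval 1.62 to 6.40). By day 7 it was 0.361 (0.256 to 0.505), while day 14 gave 0.773 (0.636 to 0.940). Without the member with the most Malt1 UMIs day 3 gave 2.32 (1.20 to 4.90) and day 7 0.316 (0.220 to 0.447). In this and the other values here without a top cell, only the UMIs of the gene in that cell were taken out. The class totals still held the cell, so the ratio without a member lies lower than with the whole cell removed. For Isg15 the ratio was 1.65 at day 3 (1.06 to 2.65). At day 7 it was 1.46, with a lower bound just above 1 and an upper bound of 2.15, while day 14 gave 0.601 (0.373 to 0.964). Irf7, a regulator of interferon genes, had 1.93 at day 3 (1.12 to 3.49) and 0.493 at day 14 (0.300 to 0.801). For Isg15 and Irf7 the day 3 side rested on 1 member each, with 48 of 94 and 50 of 72 UMIs. Without it the day 3 ratios were 0.805 (0.487 to 1.36) and 0.589 (0.299 to 1.18), and without cells with markers of other cell types 0.902 (0.534 to 1.55) and 0.472 (0.211 to 1.03), so neither gene then lay above the other class at day 3. With the top cell of both classes left out Isg15 stood at 1.16 (0.661 to 2.13) and Irf7 at 0.834 (0.395 to 1.85).

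Gbp2, an interferon-induced GTPase, had a ratio of 0.442 at day 7 (0.289 to 0.671) and 1.58 at day 14 (1.17 to 2.14). At day 14, 67 of its 152 UMIs lay in 1 member, and the ratio was 0.881 without it (0.631 to 1.23), 0.807 without cells with markers of other cell types (0.529 to 1.23) and 0.767 without cells with at least 20 MHC class II UMIs (0.510 to 1.15). Hif1a, a hypoxia-responsive transcription factor, had 1.25 at day 7 (1.03 to 1.54) and 0.856 at day 14 (0.742 to 0.989). Without the UMIs of the top member the day 7 ratio was 1.08 (0.881 to 1.34). Without barcodes of at least 20000 UMIs it was 1.35 (1.06 to 1.72) at day 7 and 0.990 (0.842 to 1.16) at day 14. These alternatives were chosen after seeing the data. Under them the change of side between days 3 and 7 held for Malt1, and those of the other 4 genes did not hold under at least 1 of them.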

How the results depend on the processing

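The samples are pooled, 1 library a day, and all intervals cover counting error only. Of the counts and share ratios under the alternatives, 112 stayed within 1.5 times the reported count or within the interval of the share, and 39 did not; the causes were not tested. Of the values of named genes between the classes, 2118 stayed on the same side of the threshold, 178 lost the call and 69 gained it. In 1 value with a call in either fit the direction changed. A change of direction without a call in either fit was not counted. For the days, 922 stayed within the interval of the full result and 213 moved outside it. Another 10, of genes counted as higher or lower in the full result, changed direction. Changes of direction in other genes were not counted.

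Between the classes, 363 genes were higher and 446 lower. Without the library block, which ignores the pairing of the classes by library, 197 were higher and 304 lower, and all 501 were among the calls of the full fit. With cells thinned to 1500 UMIs, where 1014 genes were tested, the counts were 107 and 143, and with DESeq2 128 and 159. Without barcodes of at least 20000 UMIs 241 were higher. Leaving out each library gave 139 to 434 higher and 195 to 520 lower, lowest without day 7. Hmgb2 turned to -0.018 without barcodes of at least 20000 UMIs. As a share of T cells without Cd8 UMIs the ratio of day 7 to day 3 was 0.808, of day 14 to day 3 1.25 and of day 14 to day 7 1.55.

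The alternatives without barcodes of at least 20000 UMIs and without cells of at least 20 MHC class II UMIs were chosen after seeing the data. From day 3 to day 7, higher genes numbered 226 without shared barcodes, 186 without barcodes of at least 20000 UMIs and 1017 by the mean of per-cell CPM. Lower genes numbered 210, 113 and 801 under these, 202 without cells with other cells' markers, 216 without MHC class II cells, 173 without the top cell of each gene and 176 with at least 50 UMIs. From day 7 to day 14, higher genes numbered 164 without other cells' markers, 138 without barcodes of at least 20000 UMIs, 200 without MHC class II cells, 161 with at least 50 UMIs and 1160 by per-cell CPM, and lower genes 215 without barcodes of at least 20000 UMIs, 163 without the top cell and 1003 by per-cell CPM. From day 3 to day 14, higher genes numbered 108, 139 and 112 without other cells' markers, deep barcodes and MHC class II cells, 408 without the top cell and 1298 by per-cell CPM. Lower genes numbered 208, 145, 227, 103 and 1053 under these, and 222 with at least 50 UMIs. The per-cell mean has no interval, so it counts by size alone.

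On the log2 scale, without barcodes of at least 20000 UMIs Isg15 from day 3 to day 7 turned to 0.25, Tnfrsf4 to 0.084 and Gzmb from day 3 to day 14 to 0.013. From day 7 to day 14 Cst3 turned to -0.39, H2-Aa to -1.92 and H2-Ab1 to -0.21 without other cells' markers, and Cst3 to -0.32 and H2-Aa to -0.53 without MHC class II cells. Hspa1b from day 3 to day 14 turned to 1.02 under 5% mitochondrial UMIs and to 0.98 with at least 2 Foxp3 UMIs.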
